A study of Mus musculus with 8 samples.

Results

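The Leydig cell steroidogenesis genes are 10 genes of androgen synthesis in the testis: Star, Cyp11a1, Cyp17a1, Hsd3b1, Hsd17b3, Insl3, Lhcgr, Fdx1, Fdxr and Scarb1. They were taken as a list of symbols, without a cut on measured values. The list was chosen with earlier results of these data known, so shares of all genes given beside member counts are a description. Probes were assigned to the genes through the RefSeq accession that the array files give for each probe. A probe was found for 9 of the 10, 13 probes in all, and every one passed the filter on dim probes. Insl3, the insulin-like hormone of Leydig cells that drives testis descent, has no probe under its accession and is not analysed here. The 9 genes are among 17513 in the whole comparison.

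Leydig cells lie in the interstitium between the testis cords and make androgens from cholesterol. Luteinizing hormone binds LHCGR on their surface and raises cAMP, STAR moves cholesterol to the inner mitochondrial membrane, and CYP11A1 cleaves its side chain to give pregnenolone, with electrons passed from FDXR through FDX1. HSD3B1 and CYP17A1 then turn pregnenolone into androstenedione, and HSD17B3 reduces androstenedione to testosterone. In the newborn mouse testis the Leydig cells are of the fetal kind, which make little HSD17B3, and Sertoli cells are a known source of that enzyme at this age.

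RNA came from Thy1-positive testis cells of C57BL/6 pups at postnatal day 4, pups that the labels describe as kept with the dam and untreated. There were 4 wild type (WT) samples and 4 labelled Glis3KO2, a knockout of the zinc finger transcription factor Glis3, each on its own one-colour array. The design text gives 3 testes per genotype where the labels list 4 samples, and no label says that samples came from separate animals, so any p-value speaks only of sample-to-sample spread, part of which may be technical. The sources used here do not describe the allele behind Glis3KO2 or any pooling of animals. Each value below is the log2 processed signal of a probe relative to the 75th percentile of its array, so 0 means as bright as that percentile. It can be compared between arrays for 1 probe, but not between probes.

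Array quality was similar: the share of spots well above background ran from 86.0% to 90.3%, and no spot was saturated. WT replicates 3 and 4 stood apart on the first principal component (69.1 and 60.0, with the other 6 arrays at or below 3.85), and WT replicate 1 on the second (80.8, with the others at or below 3.2). Glis3 itself was lower in every Glis3KO2 array (-1.98, -2.18, -1.18 and -1.32 for replicates 1 to 4) than in every WT array (-1.09, -1.01, 0.57 and 0.60). Its difference of -1.43 (SE 0.45) missed the threshold (adjusted p = 0.697 in limma over all genes). No source used here places its probe inside or outside the deleted stretch, so this may check nothing about the labels. The labels call the cells spermatogonial progenitors, and all 10 germ cell markers listed were well above background on all 8 arrays. So were 8 of the 9 Leydig genes measured. But 16121 of the 17513 genes had a probe that passed this mark, so it singles out no cell type. In such a bulk sample, fewer cells of a type and less RNA per cell cannot be told apart.

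The stretches upstream of 4 of the members whose signals moved together over the arrays, as described below, are shown. They come from RefSeq's promoter table on GRCm38.p6, read 5′ to 3′ on the gene's strand, and end before the first base annotated to the gene. Capitals mark TCAAGG, or its reverse complement CCTTGA, the letters at the heart of the element that the steroid cell regulator NR5A1 binds. The Hsd3b1 stretch is chr3:98859795-98859944 on the minus strand, the Fdx1 stretch chr9:51963603-51963752 on the minus strand, the Lhcgr stretch chr17:88792060-88792164 on the minus strand and the Cyp11a1 stretch chr9:57997874-57998023 on the plus strand. Cyp11a1 is shown as the member with one of the widest WT spreads and no match upstream of its start. Fdxr moved with these members too but is not printed. Only 18 bases of its stretch lie before the gene's first annotated base, with 0 matches.
Hsd3b1: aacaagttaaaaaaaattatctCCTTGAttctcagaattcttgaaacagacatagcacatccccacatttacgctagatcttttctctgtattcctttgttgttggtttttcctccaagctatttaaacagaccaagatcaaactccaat
Fdx1: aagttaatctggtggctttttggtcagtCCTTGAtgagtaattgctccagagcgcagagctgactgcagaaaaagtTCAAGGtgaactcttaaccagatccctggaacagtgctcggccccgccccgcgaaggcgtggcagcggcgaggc
Lhcgr: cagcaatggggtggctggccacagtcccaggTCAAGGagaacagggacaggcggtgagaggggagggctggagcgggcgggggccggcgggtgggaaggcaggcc
Cyp11a1: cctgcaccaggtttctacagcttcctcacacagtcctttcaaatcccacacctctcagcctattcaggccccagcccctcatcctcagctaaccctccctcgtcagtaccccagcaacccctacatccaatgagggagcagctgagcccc

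The table held 8 windows for 7 of the 10 members. Star, Cyp17a1 and Scarb1 were not matched. In windows of 250 bases before to 50 after the start, TCAAGG on both strands lay in 5 of the 8 member windows and in 14.4% of all 32851. These letters were chosen after the sequences had been seen. AAGGTCA (4.72% of all windows, both strands), AAGGCCA (6.2%, both strands) and TATAAA (8.32%, sense strand) were each in 0 of the 8. These strings, unlike the letters before them, were planned beforehand. The first and second were planned as NR5A1 half-site letters, so the planned search for that site found no match in the member windows. The matches of the letters chosen later lay at -128 in Hsd3b1, -122 and -74 in Fdx1, and -119 in Lhcgr. Positions are relative to the start and counted to the first base of each match. A further match lay at 10 in Hsd3b1 and one at 2 in the second Cyp11a1 window, both past the start. The Insl3 window held one at -138. These matches are a description of letters and not of binding.

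Over the 4 arrays of each genotype, no member's mean differed between WT and Glis3KO2 by more than the test's threshold allows, with 0 of 9 called beside 0% of all genes. The WT arrays mostly differed more among themselves than the Glis3KO2 arrays did. In 8 of the 9 genes, all but Hsd17b3, the WT standard deviation (SD) was at least 2 times that in Glis3KO2. Among all genes 20.6% had this. The ratio alone does not mark a wide WT spread. Fdx1 had a WT SD of 0.46, near the median of 0.43 over all genes, with 0.17 in Glis3KO2. Hsd17b3, outside the 8, had a WT SD of 1.51. In the same 8 genes WT replicate 1 was the highest and WT replicate 4 the lowest of the WT arrays, a pattern that 9.27% of all genes had. Averaging the probes of each gene made each count 7 of 9. After normexp background correction with the 75th percentile 8 of 9 kept the wider WT spread, but so did 49.8% of all genes.

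**Figure D1:**
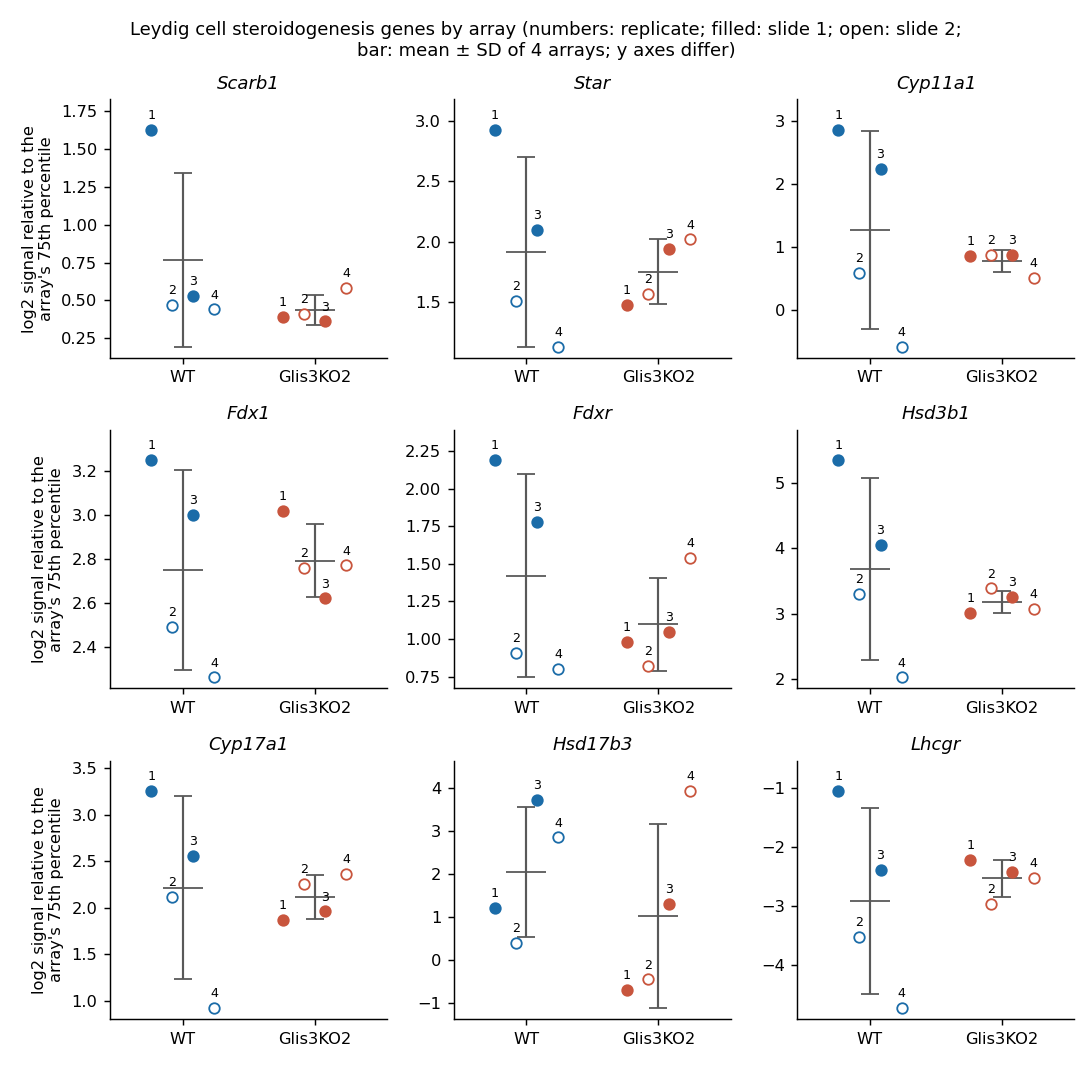
Scaled log2 signal, with 0 at the 75th percentile of the array (y axes, which differ between panels) for the probe that stands for each of the 9 genes, by genotype (x axes). Points are arrays numbered by replicate, filled for slide 1 and open for slide 2, and bars give the mean ± SD of 4 arrays. In every panel but Hsd17b3 the WT points reach from replicate 1 at the top to replicate 4 at the bottom, while the Glis3KO2 points lie closer together.

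The supply of cholesterol to the mitochondrion came first. Scarb1, the receptor that takes up cholesterol esters from high-density lipoprotein, read 1.63, 0.47, 0.53 and 0.44 in WT replicates 1 to 4 and 0.39, 0.41, 0.36 and 0.58 in Glis3KO2. WT replicate 1 alone was high, and the other 7 arrays lay within a narrow band. The WT mean was 0.77 ± 0.57 and the Glis3KO2 mean 0.43 ± 0.10 (SD, n = 4 each), a difference of -0.33 (SE 0.29, 95% interval -0.98 to 0.32; limma adjusted p = 0.764). Without WT replicate 1 the difference was -0.05.

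Star, the carrier that limits the rate of steroid synthesis, read 2.93, 1.51, 2.10 and 1.13 in WT and 1.48, 1.57, 1.94 and 2.02 in Glis3KO2. All 4 Glis3KO2 arrays lay between the WT extremes. The means were 1.92 ± 0.78 and 1.75 ± 0.27 (SD, n = 4 each), and the difference of -0.16 (SE 0.37, 95% interval -0.99 to 0.66) did not pass (limma adjusted p = 0.916). It was 0.17 without WT replicate 1 and 0.07 after normexp background correction with the 75th percentile. The second Star probe read 2.06, 0.18, 0.78 and -0.19 in WT and 0.43, 0.14, 0.31 and 0.91 in Glis3KO2. It ordered the WT arrays the same way and differed by -0.26 (SE 0.45).

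Cyp11a1, the side-chain cleavage enzyme that commits cholesterol to steroid synthesis, read 2.86, 0.58, 2.24 and -0.59 in WT and 0.85, 0.87, 0.87 and 0.51 in Glis3KO2. As deposited, its processed signals were 2582, 798, 1149 and 180 units in WT and 672, 840, 461 and 487 units in Glis3KO2. After scaling, WT replicate 1 was 11-fold above WT replicate 4, while the Glis3KO2 arrays spanned 1.29-fold. The second probe for Cyp11a1 gave a 10.5-fold range in WT and 1.35-fold in Glis3KO2, so both probes placed the Glis3KO2 arrays inside the WT range. The WT mean was 1.27 ± 1.57 against 0.78 ± 0.18 in Glis3KO2 (SD, n = 4 each), and the difference of -0.50 (SE 0.64, 95% interval -1.93 to 0.93) did not pass (limma adjusted p = 0.837). Without WT replicate 1 it was 0.03.

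The electron donors of CYP11A1 had the same order of WT arrays with a smaller range, while their Glis3KO2 arrays were ordered otherwise. Fdxr, the NADPH-dependent reductase, read 2.19, 0.91, 1.78 and 0.80 in WT and 0.98, 0.82, 1.05 and 1.54 in Glis3KO2. Its Glis3KO2 arrays lay within the WT range, and the difference of -0.32 (SE 0.34, 95% interval -1.09 to 0.44) did not pass (limma adjusted p = 0.809). It was -0.07 without WT replicate 1. Fdx1, the iron-sulphur protein that carries the electrons on, read 3.25, 2.49, 3.00 and 2.26 in WT and 3.02, 2.76, 2.62 and 2.77 in Glis3KO2. On this probe, the brightest of 3, the WT arrays spanned 2-fold and enclosed all 4 Glis3KO2 arrays. Its difference was 0.04 (SE 0.26, 95% interval -0.55 to 0.63; limma adjusted p = 0.974), but the other 2 Fdx1 probes gave -0.44 (SE 0.30) and -0.30 (SE 0.32), so the probes of Fdx1 differed in sign. Both of those probes had Glis3KO2 replicates 1 and 3 below every WT array and WT replicate 2, not 4, as the lowest of the WT arrays. Fdx1 therefore enters the counts over members below through its brightest probe.

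Hsd3b1, which makes the first hormonally active ketosteroids, had a 9.99-fold range among WT arrays. It read 5.35, 3.30, 4.05 and 2.03 in WT and 3.02, 3.39, 3.26 and 3.08 in Glis3KO2. The processed signals behind these were 14426, 5242, 4029 and 1107 units in WT and 3024, 4819, 2413 and 2881 units in Glis3KO2. The Glis3KO2 arrays lay within 1.30-fold of each other, and all but replicate 2 lay between WT replicates 4 and 2. The difference of -0.49 (SE 0.57, 95% interval -1.77 to 0.79) had an adjusted p of 0.826 in limma. Leaving out WT replicate 1 brought it to 0.06. The Hsd3b family has near-identical members, and how far this probe also reads Hsd3b2 or Hsd3b6 is uncertain. The probes assigned to these relatives ordered the WT arrays alike, but not the Glis3KO2 arrays: Hsd3b6 read 1.24, -1.04, 0.49 and -1.53 in WT and -0.93, -1.0, -0.19 and -0.71 in Glis3KO2.

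Cyp17a1, the hydroxylase and lyase that opens the path to androgens, read 3.26, 2.12, 2.56 and 0.92 in WT and 1.87, 2.26, 1.96 and 2.36 in Glis3KO2. WT replicate 1 was 5.04-fold above WT replicate 4, and the Glis3KO2 arrays spanned 1.41-fold around the WT mean. Means were 2.22 ± 0.98 and 2.11 ± 0.24 (SD, n = 4 each), with a difference of -0.10 (SE 0.43, 95% interval -1.06 to 0.86; limma adjusted p = 0.958). Its sign turned without WT replicate 1 (0.25) and after normexp with the 75th percentile (0.06).

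Lhcgr, the receptor for luteinizing hormone, read -1.04, -3.53, -2.39 and -4.74 in WT and -2.22, -2.97, -2.43 and -2.52 in Glis3KO2. This was a dim probe, with processed signals of 173, 46.1, 46.4 and 10.2 units in WT and 46.6 to 80.2 units in Glis3KO2. WT replicate 4 was not well above background, so the 13-fold WT range rests on a value that background limits. WT averaged -2.92 ± 1.58 against -2.53 ± 0.32 in Glis3KO2 (SD, n = 4 each), and the difference of 0.39 (SE 0.65, 95% interval -1.06 to 1.84) did not pass (limma adjusted p = 0.877). Without WT replicate 4 the difference turned to -0.22, and after normexp with the 75th percentile to -0.54.

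Hsd17b3, over all 8 arrays, followed another order than the other 8 genes. It read 1.22, 0.40, 3.73 and 2.85 in WT and -0.70, -0.45, 1.31 and 3.94 in Glis3KO2, with processed signals of 829, 704, 3237 and 1961 units and 230, 336, 624 and 5232 units. In both genotypes replicates 3 and 4 were above replicates 1 and 2. The range was 10.1-fold in WT and 25-fold in Glis3KO2, where replicate 4 was the highest of all 8 arrays. Means were 2.05 ± 1.51 and 1.02 ± 2.14 (SD, n = 4 each), and the difference of -1.03 (SE 1.03, 95% interval -3.33 to 1.27) did not pass (limma adjusted p = 0.795). Leaving out WT replicate 3 moved it to -0.47, leaving out Glis3KO2 replicate 1 to -0.45 and leaving out Glis3KO2 replicate 4 to -2.0.

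**Figure D2:**
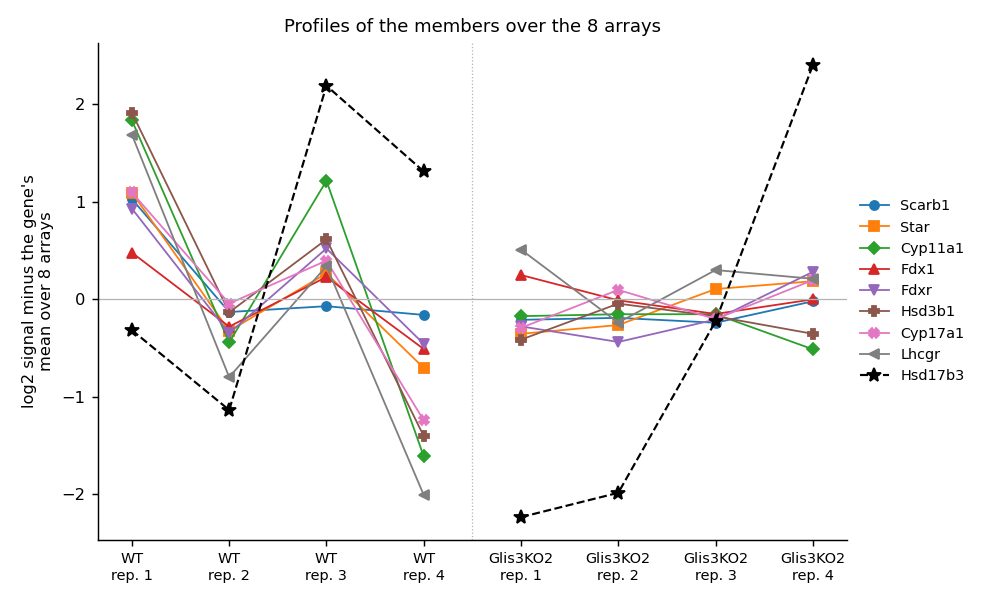
Log2 signal of each gene minus its own mean over 8 arrays (y axis) for the 4 WT and 4 Glis3KO2 arrays (x axis), with lines joining values of a gene within a genotype to guide the eye. The 8 solid profiles peak at WT replicate 1 and span a narrower range in Glis3KO2. Hsd17b3, dashed, is high in WT replicate 3 and Glis3KO2 replicate 4.

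As a count, 0 of the 9 genes passed an adjusted p under 0.05 in limma, beside 0% of all 17513 genes (0 genes). At an unadjusted p under 0.05 there were 0 of 9, beside 6.9% of all genes (1208). The arrays of the genotypes did not overlap for 0 of 9, beside 3.5% of all genes. A lower mean in Glis3KO2 was found for 7 of 9, beside 59.2% of all genes, and the median difference was -0.32 for the 9 genes and -0.08 for all genes. In a fit over 36429 probes, 0 of the 13 member probes passed, beside 0% of all. Without WT replicate 4, 2 genes (Cyp11a1 and Hsd3b1) reached an unadjusted p under 0.05 with limma, beside 845 of all 17513. Without Glis3KO2 replicate 4, 1 member did (Hsd17b3), beside 1342 of all. None passed after adjustment. Wide intervals leave room for differences of either sign: that of Cyp11a1 reached from -1.93 to 0.93.

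The spread itself was described against all genes. The median SD over the 9 was 0.98 in WT and 0.24 in Glis3KO2, while over all genes it was 0.43 and 0.37. Without Hsd17b3 the member medians were 0.88 and 0.21. The WT SD of Lhcgr was at the 98.7th percentile of all genes, that of Cyp11a1 at the 98.6th, Hsd3b1 at the 97.7th and Cyp17a1 at the 91.3rd, while Fdx1 was at the 54.2nd. In Glis3KO2 the same genes were ordinary or steady, with Scarb1 at the 2.54th percentile, Fdx1 at the 9.64th, Hsd3b1 at the 10.9th and Cyp11a1 at the 11.5th. Hsd17b3 was at the 98.4th percentile in WT and at the 99.8th in Glis3KO2.

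**Figure D3:**
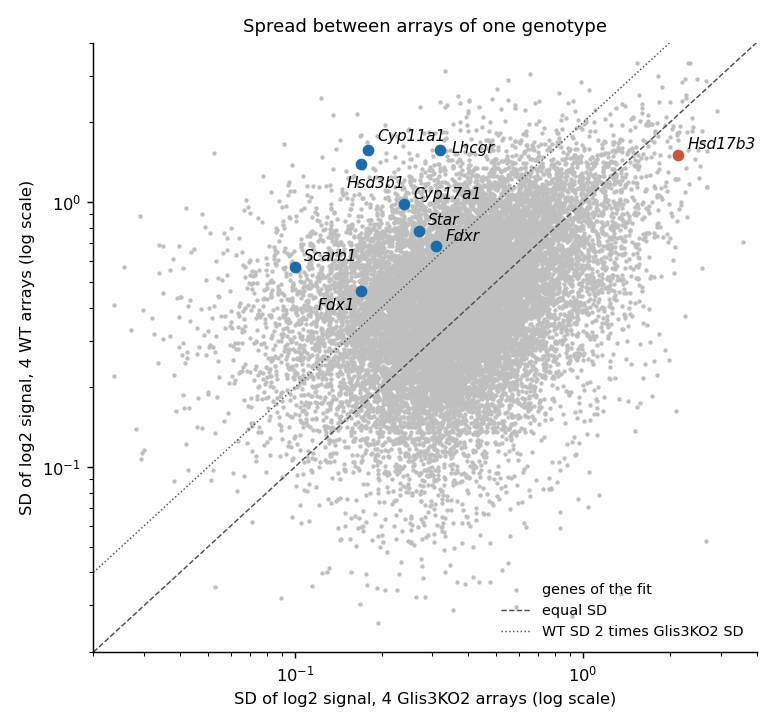
SD of log2 signal over the 4 WT arrays (y axis, log scale) against that over the 4 Glis3KO2 arrays (x axis, log scale) for genes of the fit (grey) and the 9 members (coloured), with lines for equal SD and for a WT SD 2 times that in Glis3KO2. The 8 blue members lie above the dotted line, and Hsd17b3, in red, lies below the line of equal SD.

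The spread depended on which WT arrays were kept. Without WT replicate 1, 5 of the 9 genes kept a WT SD at least 2 times that in Glis3KO2 (Cyp11a1, Cyp17a1, Hsd3b1, Lhcgr and Fdx1), beside 17.6% of all genes. Without WT replicate 4, 8 did, beside 20.9%, and without WT replicates 3 and 4, 8 did, beside 17.2%. Without WT replicates 1 and 4, a setting chosen after seeing the data, 4 did (Cyp11a1, Hsd3b1, Lhcgr and Fdx1), beside 20.4%. The median WT SD was then 0.53. Leaving out the highest and the lowest array narrows the WT spread by construction, so that setting cannot show where the spread lies. The order of the WT arrays changed most in 1 setting: after normexp with the 75th percentile, WT replicate 1 was highest and WT replicate 4 lowest in 3 of the 9 genes, beside 5.71% of all genes. It was 8 of 9, beside 10.8%, with normexp and quantile normalization, and 8 of 9 with quantile or median scaling of the processed signal. The cause was not tested. All 4 Glis3KO2 arrays lay within the WT range for 7 of 9 genes, beside 23.5% of all genes. Hsd17b3 and Scarb1 were the exceptions.

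The slides were compared next. Slide 1 carried replicates 1 and 3 of both genotypes, and slide 2 carried replicates 2 and 4. In 8 of the 9 genes both WT arrays of slide 1 were above both WT arrays of slide 2, beside 16.9% of all genes. These were the same 8 genes in which WT replicate 1 was highest and WT replicate 4 lowest. Beyond that order, the count adds only that WT replicate 3 was above WT replicate 2. Among the Glis3KO2 arrays this held for 1 gene, Lhcgr, beside 13.9% of all genes. All 9 genes had a lower mean in Glis3KO2 on slide 1 and a higher mean on slide 2, beside 19.9% of all genes. That count is not separate from the WT order, as the Glis3KO2 arrays lay within the WT range for 7 of 9 genes. For Cyp11a1 the within-slide differences were -1.69 on slide 1 and 0.70 on slide 2, for Hsd3b1 -1.56 and 0.57, and for Cyp17a1 -0.99 and 0.79. Lhcgr differed by -0.61 and 1.39, Star by -0.80 and 0.47, and Fdxr by -0.97 and 0.33. For Hsd17b3 the values were -2.18 and 0.12, for Fdx1 -0.31 and 0.39, and for Scarb1 -0.71 and 0.04.

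**Figure D4:**
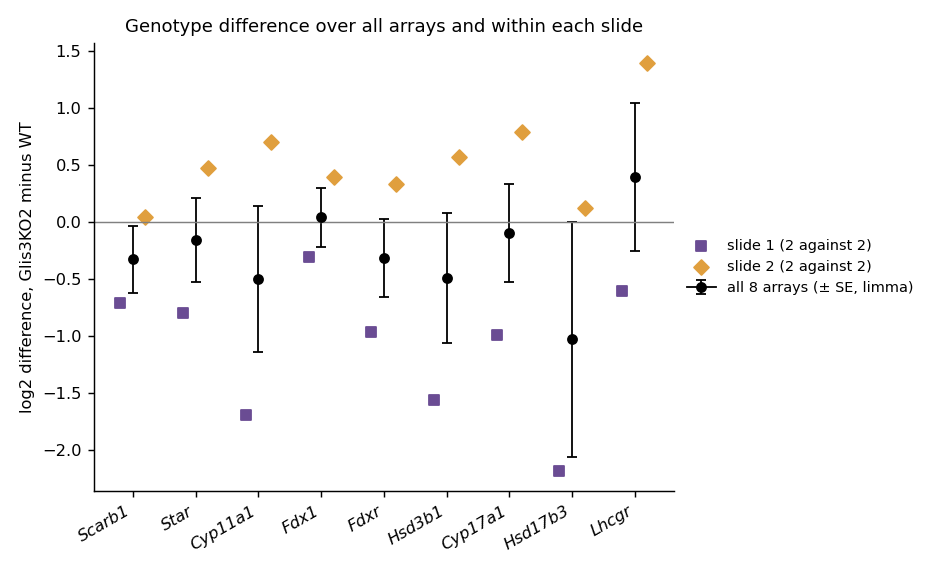
Log2 difference, Glis3KO2 minus WT (y axis), for each of the 9 genes (x axis): over all 8 arrays with its SE from limma (circles), and within slide 1 (squares) and slide 2 (diamonds), each 2 arrays against 2. Every square lies below 0 and every diamond above it.

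A slide-by-genotype interaction was fitted over all genes after these values had been seen. It passed an adjusted p under 0.05 for 0 of 9 members, beside 0% of all genes, and an unadjusted p under 0.05 for 5 of 9, beside 2.31% of all genes. The difference between the slides was 2.39 (SE 0.65) for Cyp11a1, with an unadjusted p of 0.00626 and an adjusted p of 1 in limma. The other 4 were Hsd3b1 at 2.13 (SE 0.79), Lhcgr at 2.0 (SE 0.79), Cyp17a1 at 1.78 (SE 0.65) and Fdxr at 1.30 (SE 0.52). As a term chosen for these values, it adds no support to the difference between slides, and with 2 arrays of a genotype on each slide the slide and the single arrays cannot be told apart.

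The 8 genes had similar profiles over the arrays. Over the 8 arrays, which all pairs share, their 28 pairwise Pearson correlations ranged from 0.63 to 0.96 with a median of 0.84. Without WT replicates 1 and 4 they ranged from -0.05 to 0.92 with a median of 0.50. Hsd17b3 correlated with the other 8 at -0.13 to 0.44, with a median of 0. Without WT replicates 1 and 4 that range was 0.15 to 0.93 with a median of 0.58, among them 0.93 with Fdxr, 0.92 with Star and 0.15 with Fdx1. Over the 6 arrays left, Hsd17b3 was thus about as close to the 8 as they were to each other.

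The mean of the 4 defining genes measured (Star, Cyp11a1, Cyp17a1 and Hsd3b1, each centred over the arrays) was 1.48, -0.24, 0.62 and -1.24 in WT and -0.31, -0.09, -0.10 and -0.12 in Glis3KO2. The 5 genes outside the list with the most similar profile over the 8 arrays were Adh1 (r = 0.988), Oprl1 (0.963), Tmem135 (0.961), Zcchc7 (0.958) and Hsd3b2 (0.957). Adh1, an alcohol dehydrogenase, read 5.04, 2.50, 3.94 and 1.32 in WT and 2.53, 2.68, 2.98 and 2.43 in Glis3KO2, with its Glis3KO2 arrays again inside the WT range. These likenesses were not equal in all settings: after normexp with the 75th percentile r was 0.54 for Hsd3b2, 0.79 for Oprl1 and 0.78 for Zcchc7. Without WT replicates 1 and 4, r was 0.71 for Tmem135, 0.71 for Zcchc7, 0.72 for Hsd3b2 and 0.82 for Oprl1. For Adh1 it was 0.95.

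Other cell types were read from marker lists on the same arrays, as the mean of centred log2 signal. WT replicate 1, where the steroid genes were highest, was also the highest of the WT arrays for macrophage markers (0.80) and endothelial markers (0.90), and below 0 for germ cells (-0.40) and interstitial stroma (-0.72). Macrophage markers were highest of all arrays in Glis3KO2 replicate 1 (0.95), where the defining steroid genes were at -0.31. WT replicate 4, where they were lowest, was the highest of all arrays for germ cell markers (1.13) and the lowest for peritubular (-1.32) and macrophage (-1.03) markers. WT replicate 3, which had the second highest mean of the defining steroid genes, was also high for germ cell (0.86) and Sertoli cell (0.70) markers and low for stroma (-1.28). Markers of fetal Leydig cells (Dlk1, Thbs2 and Mc2r) were at -0.60, 0.70, -0.53 and -1.05 in WT: like the steroid genes they were lowest in WT replicate 4, but their highest WT array was replicate 2. All 10 Sertoli, all 10 germ cell, all 5 macrophage and all 4 endothelial markers were well above background on every array. Of all 17513 genes, 16121 had such a probe. The part of these cell types in the spread of the steroid genes was not tested.

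**Figure D5:**
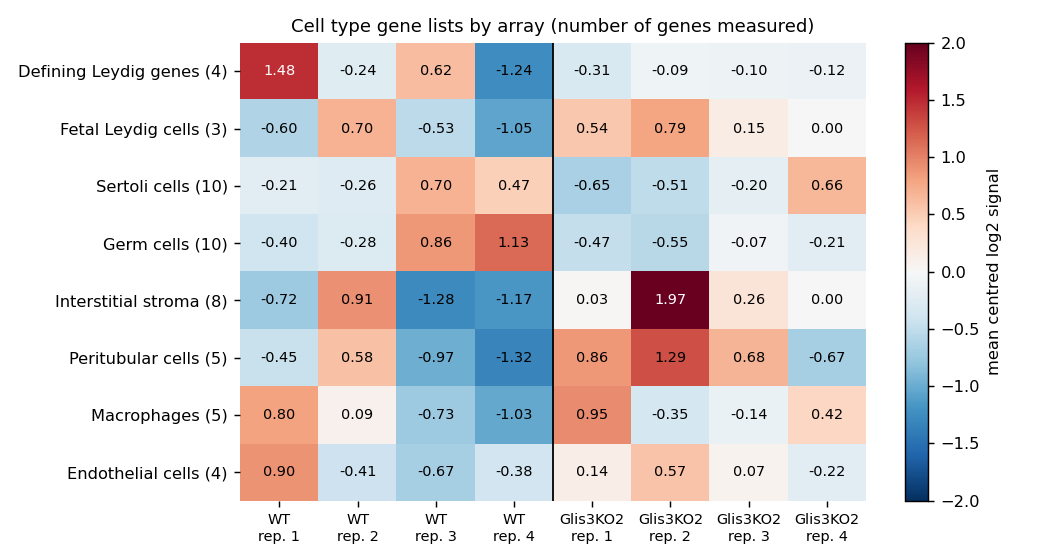
Mean centred log2 signal (colour and printed value) of the 4 defining Leydig genes and of 7 cell type marker lists (y axis, with the number of genes measured) on each array (x axis). The defining Leydig genes run from 1.48 in WT replicate 1 to -1.24 in WT replicate 4 and stay between -0.31 and -0.09 in Glis3KO2.

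Over all 8 arrays Hsd17b3 went with the Sertoli cell list, which includes neither it nor any other member. Without WT replicates 1 and 4 Hsd17b3 also went with the other 8 members (median r = 0.58), as given above. The list was at -0.21, -0.26, 0.70 and 0.47 in WT and at -0.65, -0.51, -0.20 and 0.66 in Glis3KO2, so both were high in WT replicates 3 and 4 and in Glis3KO2 replicate 4. Over the 8 arrays, which they share, 9 of the 10 Sertoli genes correlated with Hsd17b3 above 0 (0.56 to 0.98). The share of all genes with r above 0 is not given here, so this count does not single out the Sertoli list. Cldn11, a tight junction protein of Sertoli cells, went the other way (r = -0.71) and was lowest of all arrays in Glis3KO2 replicate 4. The part of Sertoli cells in the Hsd17b3 signal was not tested.

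Further genes of the pathway were counted by role. Beside these counts, 0% of all 17513 genes passed, 59.2% had a lower mean in Glis3KO2, and the median difference was -0.08. Of 11 genes of cholesterol supply, 0 passed the adjusted threshold in either direction, 3 had a higher and 8 a lower mean in Glis3KO2, and the median difference was -0.11. Dbi, an acyl-CoA binding protein, differed by -0.29 (SE 0.26), by -0.14 without WT replicate 4 and by -0.08 after normexp with the 75th percentile. Tspo, a protein of the outer mitochondrial membrane, differed by 0.13 (SE 0.33) and turned to -0.13 without WT replicate 4. None of the 11 reached an unadjusted p under 0.05 with limma, beside 6.9% of all genes.

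Of 18 other steroid enzymes and electron donors, 0 passed, 6 had a higher and 12 a lower mean in Glis3KO2, and the median was -0.09. Among all genes 59.2% had a lower mean, with a median of -0.08, so these counts set the 18 genes little apart. Cyp7b1, an oxysterol hydroxylase, had the widest difference named, 1.92 (SE 0.90). It read -1.74, 0.28, -3.08 and -4.41 in WT, where 3 of 4 arrays were well above background, and -0.36, 0.45, 0.50 and -1.84 in Glis3KO2. The difference was 1.2 without WT replicate 4, 0.42 without WT replicates 3 and 4, and 1.12 and 1.04 after normexp with the 75th percentile and with quantile normalization. Hsd17b7, an enzyme of cholesterol and oestradiol synthesis, differed by -0.44 (SE 0.22). Cyb5r3, the reductase of cytochrome b5, differed by -0.58 (SE 0.48) and read 5.15, 3.92, 4.17 and 2.38 in WT and 3.37, 3.24, 3.23 and 3.47 in Glis3KO2. It moved to -0.16 without WT replicate 1, to -1.09 without WT replicate 4 and to -0.30 with the mean over its probes. WT replicate 1 was the highest and WT replicate 4 the lowest WT array for 5 of these 18 genes, beside the 9.27% of all genes.

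Of 13 regulators of steroid cells, 0 passed, 8 had a higher and 5 a lower mean (59.2% of all genes were lower), and the median was 0.07. Crem, a cAMP-responsive factor, was lower in all 4 Glis3KO2 arrays than in any WT array on the brightest of its 6 kept probes. Groups did not overlap for 1 of the 13 regulators, beside 3.5% of all genes. The Crem difference of -0.51 (SE 0.23) had an unadjusted p of 0.0498 in limma that did not survive adjustment (adjusted p = 0.697). It was -0.40 with the mean over its probes and -0.30 without WT replicates 1 and 4. Nr0b1, a repressor of steroid genes, differed by -1.03 (SE 0.52), and Tcf21, a factor of interstitial progenitors, by 0.87 (SE 0.48). Nr5a1, the master regulator of steroid cells, read 0.66, -0.99, -0.36 and -1.15 in WT and -1.77, -1.40, -0.85 and -0.77 in Glis3KO2. Its WT arrays had the order of the steroid enzymes, with a genotype difference of -0.74 (SE 0.41). Without WT replicate 1 the difference was -0.37 for Nr5a1 and -0.60 for Nr0b1, and with normexp and quantile normalization it was -0.46 for both. Tcf21 was at 1.31 without WT replicate 2 and at 0.08 without WT replicates 3 and 4.

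Of 12 genes of hormone signalling to and from Leydig cells, 11 were measured, all but Pde8a. None passed, 8 had a higher and 3 a lower mean in Glis3KO2 (59.2% of all genes were lower), and the median was 0.14. Pdgfra, a growth factor receptor of interstitial progenitors, differed by 0.91 (SE 0.41) and Esr1, an oestrogen receptor, by 0.70 (SE 0.42). Without WT replicate 4 they were at 0.55 and 0.40, and without WT replicates 3 and 4 at 0.20 and -0.02. Adrenal cortex markers were measured for 4 of 5, and among them Cyp21a1, the steroid 21-hydroxylase, read -1.47, -2.17, -0.83 and -1.11 in WT and -2.61, -2.59, -2.01 and -1.83 in Glis3KO2. Its difference of -0.87 (SE 0.33) was lower on both slides (-1.16 and -0.57) and did not pass (limma adjusted p = 0.697). It was -0.55 with normexp and quantile normalization and -0.44 without WT replicates 3 and 4.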

How the data were processed

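The authors deposited 1 scanner file per array, and the file headers name Agilent Feature Extraction 12.0.0.7 as the software. Per the file headers each holds a processed intensity per spot, background-subtracted and detrended within the array, with median intensities and other flags (well above background, saturated, outlier) that the deposited files give as 0 or 1. The deposited value table equalled the processed intensity on 100% of spots (tolerance 1e-06, column medians 67.2 to 144), so it gave no second normalization. Its values are linear and not centred.

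From these, scaled log2 values were computed here by subtracting the array's 75th percentile of log2 processed signal, leaving out outlier spots. Of 41174 probes, 28223 matched 1 gene and 0 several by unversioned accession in a GRCm38.p6 gene table, and 12951 stayed unnamed. Header annotation is on mm9, and no array coordinates are used. A probe was kept if it was well above background on 4 or more of the 8 arrays (36429 probes), and the one of highest mean stood for its gene (17513 genes, 6362 with several kept probes). The test was limma 3.58.1 (R 4.3.3), genotype as the only term, Benjamini-Hochberg over all genes, threshold 0.05. The number of arrays limits the precision. The scripts were tested on simulated data.

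The members and lists were chosen with earlier results of these data known. The text names the members, the 3 genes of smallest p in each of 4 pathway lists, Nr5a1, Hsd3b6, Cyp21a1 and Tspo, and the 5 genes most like the defining members. Some genes that this rule takes are not reported here. Marker lists covered Leydig (9 of 10 measured), fetal Leydig (3), adult Leydig (3), adrenal cortex, Sertoli, germ, stromal, peritubular, macrophage and endothelial cells. The adult Leydig list, which holds Hsd17b3, was at 0.25, -0.49, 0.83 and -0.20 in WT and -0.70, -0.20, -0.05 and 0.55 in Glis3KO2 replicates 1 to 4, and the adrenal list at 0.40, -0.11, 0.28 and 0.08, and -0.24, -0.59, -0.03 and 0.20.

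WT arrays were at positions 1 and 2 and Glis3KO2 arrays at positions 3 and 4 of both slides, so position and genotype cannot be told apart. Same-numbered arrays deviated together from their group means (r = 0.16, 0.34, 0.18 and 0.13 across genes, which are not independent replicates), all over 0.1. WT replicate 3 with Glis3KO2 replicate 4 (0.14) and WT replicate 4 with Glis3KO2 replicate 3 (0.12) were over it too. A fit with a replicate block was therefore run. Other alternatives were normexp background correction (offset 50, on median spot and background signals, since the planned mean signal was not among the columns used here), quantile and median scaling, other filters, probes averaged or tested singly, slide as a block, and arrays left out. The slide-by-genotype term, the letters TCAAGG and leaving out WT replicates 1 and 4 were chosen after seeing the data.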

Additional observations from a re-analysis of the deposited data

Results flagged for a closer look

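Among 52 groups of 4 arrays examined for a single array far from the others, 3 were flagged. Chance gives about 1 in 20, so this number is near the rate of chance. Cyp11a1 in Glis3KO2 replicate 4 was at 0.51 on the log2 scale, 0.33 below the nearest of the other 3 Glis3KO2 arrays. The second Cyp11a1 probe did not set that array apart, with 0.19, 0.41, -0.02 and 0.15 in Glis3KO2 replicates 1 to 4. The Scarb1 probe in WT replicate 1 was at 1.63, 1.09 from the nearest WT array. One of 3 Fdx1 probes was at 2.27 in WT replicate 1, 0.96 from the nearest. Both of the WT values belong to the array in which 8 of the 9 Leydig genes were highest, and the Glis3KO2 value to the array in which Hsd17b3 was highest.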

How the results depend on the processing

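No Leydig gene passed the adjusted threshold under any alternative run, so the changes here are of values and signs. Of all genes, 1 passed with quantile normalization of log2 signal and 1 at an adjusted p under 0.10, beside 0. The replicate block, used because the samples were treated as paired, changed no call: 0 members passed, and 1877 genes reached an unadjusted p under 0.05 beside 1208. With normexp and the 75th percentile the median difference over all genes was -0.23 beside -0.08, and Cyp17a1 turned to 0.06, Lhcgr to -0.54 and Star to 0.07, and WT replicate 1 was highest and WT replicate 4 lowest in 3 members beside 8. The cause was not tested. With the mean over probes Fdx1 turned to -0.23, its probes differing in sign. Without WT replicates 3 and 4 the differences were -0.02 for Esr1, -0.08 for Fdx1, 0.21 for Hsd17b3, -0.25 for Lhcgr and -0.32 for Tspo. Without WT replicates 1 and 4, added after seeing the data, Tspo was at -0.12, the median WT SD of the members fell to 0.53, and 4 members had a WT SD at least 2 times that in Glis3KO2. Leaving out single arrays gave ranges of -1.12 to 0.03 for Cyp11a1, -0.53 to 0.25 for Cyp17a1, -0.12 to 0.21 for Fdx1, -1.04 to 0.06 for Hsd3b1, -0.22 to 1.02 for Lhcgr, -0.43 to 0.17 for Star and -0.13 to 0.33 for Tspo, and 5 to 8 members with the wider WT SD. In all, 16 of 170 values of member differences changed sign. Genes at an unadjusted p under 0.05 numbered 2408 without WT replicate 2 and 663 without WT replicate 3. Signal over background limits Lhcgr alone among the members, and Lhcgr was not tested where all 8 arrays had to be well above background.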

Other observations

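The genes whose profile over the 8 arrays was closest to that of Hsd17b3 were looked up after its values had been seen. They were Chka, a choline kinase (r = 0.988), Cited1, a transcriptional co-regulator (0.983), Gstm3, a glutathione transferase (0.982), Gatm, an enzyme of creatine synthesis (0.98), and Gata4, a transcription factor of testis somatic cells (0.976). Cited1 read 0.48, -0.09, 1.26 and 1.29 in WT and -0.49, -0.33, 0.39 and 1.36 in Glis3KO2, and Gatm 0.29, -0.13, 1.05 and 1.12 in WT and -0.41, -0.64, 0.29 and 1.38 in Glis3KO2. In both, as in Hsd17b3, replicates 3 and 4 of each genotype were above replicates 1 and 2. These correlations are over arrays that all of the genes share and are given as a description.

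The markers of fetal Leydig cells differed among themselves over the arrays. Dlk1, a membrane protein of the Notch ligand family, read -1.17, 0.93, 0.15 and -1.25 in WT and 0.18, 2.0, -0.37 and 0.77 in Glis3KO2. Thbs2, a secreted thrombospondin, read -1.59, 0.36, -2.32 and -2.41 in WT and 0.43, 0.18, -0.65 and -1.49 in Glis3KO2. Mc2r, the receptor for adrenocorticotropic hormone, read -0.93, -1.10, -1.33 and -1.40 in WT and -0.89, -1.71, -0.42 and -1.19 in Glis3KO2. All of these were lowest of the WT arrays in replicate 4, as the defining steroid genes were. Mc2r was highest of the WT arrays in replicate 1, as those genes were, and Dlk1 and Thbs2 in replicate 2, where those genes averaged -0.24. The correlation with the defining genes over the 8 arrays, as a description, was 0.19 for Mc2r, -0.10 for Dlk1 and -0.12 for Thbs2. Differences of 0.98 (SE 0.60) for Dlk1, 1.11 (SE 0.63) for Thbs2 and 0.14 (SE 0.29) for Mc2r all missed the limma threshold.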
